A study of Mus musculus with 4 samples.

Results

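The genes described here make, break down and bind retinoic acid, the signalling product of vitamin A. They are the 9 genes Rdh10, Dhrs3, Aldh1a1, Aldh1a2, Aldh1a3, Cyp26a1, Cyp26b1, Crabp1 and Crabp2. They were chosen by name, with earlier results of these data known. Each had 1 probe set among the 23185 named probe sets of the array. Cells take up retinol from the blood, retinol dehydrogenases oxidise it to retinaldehyde, and retinaldehyde dehydrogenases oxidise that irreversibly to retinoic acid. Retinaldehyde can also be reduced back to retinol, and enzymes of the CYP26 family hydroxylate retinoic acid and so end its action. Several of these genes are themselves known targets of retinoic acid in many tissues, among them Dhrs3 and Cyp26a1, and in lung the pathway is known for its part in development and in the state of airway muscle.

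Airway smooth muscle cells were sorted from lungs of adult Acta2-hrGFP;Cspg4-DsRED mice. In these mice the smooth muscle actin promoter drives a green reporter and the promoter of Cspg4, a gene of pericytes and vascular smooth muscle, drives a red one, and green cells without red were kept. RNA of 3 mice was pooled for each of 4 arrays, with 1 array per group, so no group has replicates and no spread between mice can be given. VAS mice ate normal chow holding 15 IU/g of vitamin A. VAD mice ate chow depleted of vitamin A (below 0.1 IU/g), for 3 days by one statement of the labels and 5 days by another. CTR mice ate a powdered, vitamin A-sufficient diet mixed with corn oil for 3 days. BMS mice ate the same powder for 3 days with a pan-receptor antagonist at 5 mcg per gram, which blocks the receptors for retinoic acid. VAS and CTR therefore share sufficiency in vitamin A but differ in diet form, vehicle, experiment and mice.

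Levels are deposited log2 values, so a difference of 1 is 2-fold. Genes were counted where their highest array reached 6.05, the midpoint of the named values on all arrays, and 12395 genes did. On these scales the array medians lay between 5.97 and 6.02, and all 8 airway smooth muscle markers passed, with Acta2 at 11.96, 12.12, 11.98 and 11.95 in VAS, VAD, CTR and BMS. All 12 fibroblast markers passed as well, with a mean level of 9.80 in VAS beside 11.44 for the 8 smooth muscle markers. In the same order of arrays, Dpt stood at 12.43, 12.34, 12.35 and 12.58, above Acta2 on each. Pdgfra stood below Acta2, at 8.96, 9.38, 8.57 and 9.64. The labelled cell type was therefore present, and so was fibroblast RNA, with a marker as high as those of muscle. All 6 markers of pericytes and vascular smooth muscle passed too. Their mean level was 9.32 in VAS, 9.60 in VAD, 9.83 in CTR and 9.61 in BMS. Cspg4, whose promoter drives the red reporter, was the lowest of the 6 on each array. It stood at 7.71, 8.22, 8.08 and 7.98 in VAS, VAD, CTR and BMS. In such bulk RNA, fewer cells of a type and less RNA per cell cannot be told apart.

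Of the 9 genes, 7 passed the filter. Dhrs3, Rdh10, Aldh1a1, Cyp26b1 and Crabp2 reached it on all 4 arrays. Aldh1a2 reached it on the BMS array alone and Aldh1a3 on the VAS array alone, so the filter itself favoured a difference for both. Cyp26a1 and Crabp1 stayed below it on every array.

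Rdh10, the retinol dehydrogenase that makes retinaldehyde, was lower on the VAD and BMS arrays than on both control arrays. Its level was 9.82 in VAS and 9.28 in VAD, and 9.54 in CTR and 9.32 in BMS. The VAD and BMS levels lay 0.03 apart, and the groups did not overlap. The difference was -0.53 for VAD minus VAS and -0.23 for BMS minus CTR, beside -0.27 between the controls (CTR minus VAS). The antagonist difference of Rdh10 was therefore no larger than the difference between the control pools.

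Dhrs3, the reductase that returns retinaldehyde to retinol and is known to form an active complex with Rdh10, stood in the opposite direction. Its level was 9.30 in VAS, 10.34 in VAD, 9.63 in CTR and 10.20 in BMS. The VAD and BMS arrays were both higher than both controls. Dhrs3 is named above as a target of retinoic acid, and the retinoid signal in these cells was not measured. Dhrs3 was 2.06-fold higher in VAD than in VAS, a log2 difference of 1.04, and held rank 27 from the top among 12395 genes. In BMS it was 1.48-fold higher than in CTR, a difference of 0.56 at rank 413. The controls differed by 0.33, with CTR the higher. The lower of VAD and BMS stood 0.56 above the higher of VAS and CTR, and 5 other genes past the filter had a wider gap in that direction, which put Dhrs3 at rank 6.

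Aldh1a1, a retinaldehyde dehydrogenase that makes retinoic acid, was higher in VAD and in BMS than in the control of the same experiment. Its level was 8.78 in VAS and 9.52 in VAD, and 8.08 in CTR and 8.91 in BMS. The differences were 0.75, or 1.68-fold, for the diet (rank 69) and 0.83, or 1.78-fold, for the antagonist (rank 184). The controls were -0.70 apart, almost as far as either treated array was from its own control. BMS lay only 0.13 above VAS, so the 2 groups did not overlap but nearly touched. Aldh1a1 was 1 of 12 genes (0.0968%) that stood at least 1.5-fold above the control of the same experiment in both VAD and BMS.

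Aldh1a2, the retinaldehyde dehydrogenase of the early embryo and of mesothelium, was high on the BMS array. Its level was 5.47 in VAS, 5.68 in VAD, 5.53 in CTR and 6.41 in BMS. The first 3 arrays lay within 0.22 of each other and below the filter. BMS minus CTR was 0.88, or 1.84-fold, at rank 171, and VAD minus VAS was 0.22. BMS minus VAS was 0.94, so the choice of control made little difference here.

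Aldh1a3, the remaining retinaldehyde dehydrogenase of the family, was high on the VAS array. Its level was 6.29 in VAS, 5.75 in VAD, 5.55 in CTR and 5.83 in BMS. The treated arrays lay between the controls, so the groups overlapped. VAD minus VAS was -0.54 and BMS minus CTR 0.28, while the controls differed by -0.74. Against CTR in place of VAS, the VAD difference turned to 0.20.

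**Figure D1:**
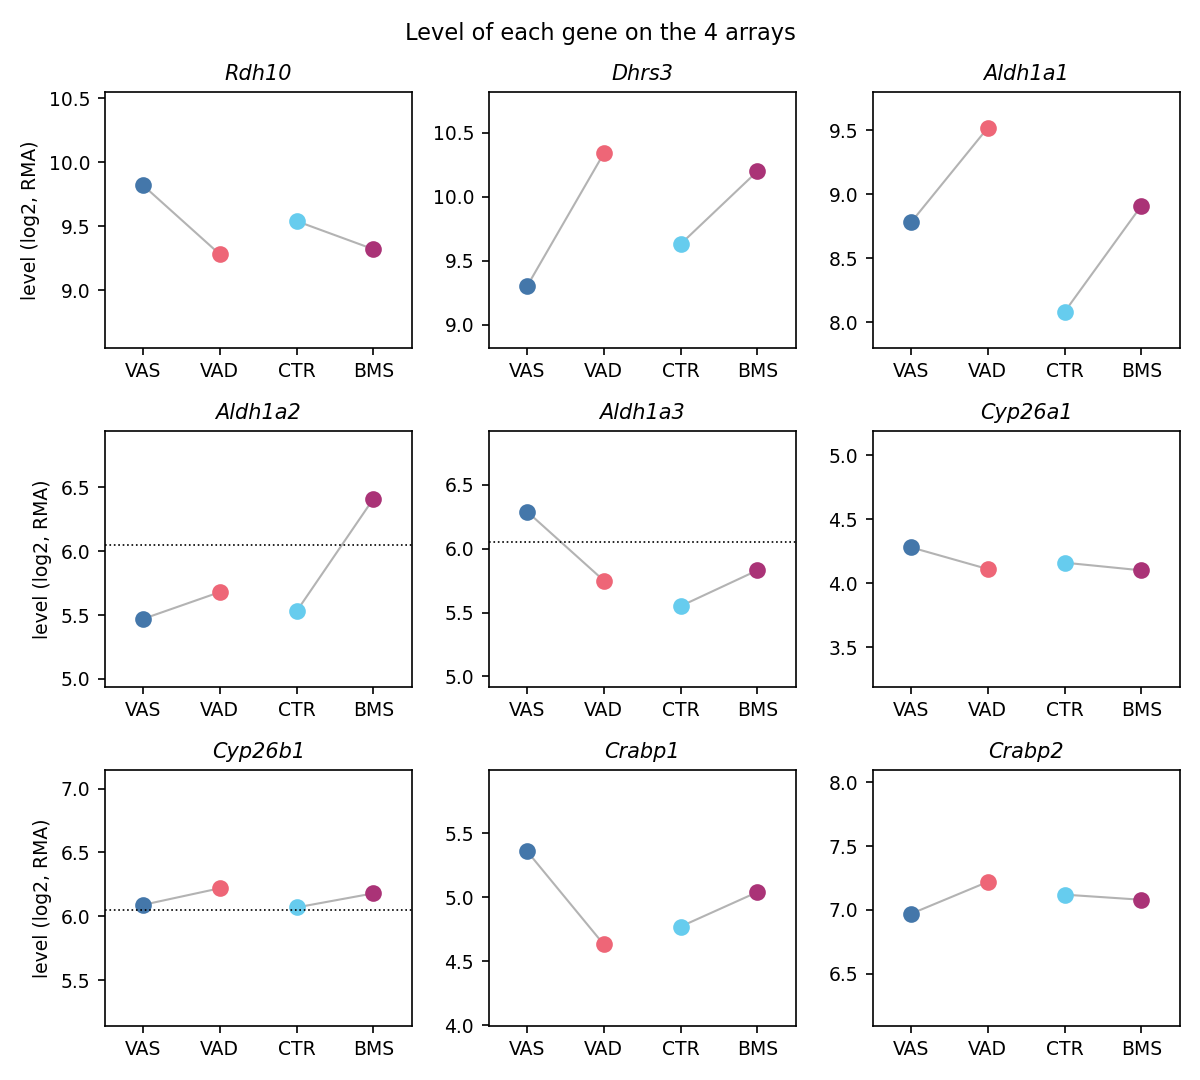
Level of each of the 9 genes on the deposited log2 scale, 1 point per array (VAS and VAD in the diet experiment, CTR and BMS in the antagonist experiment, joined by grey lines), with an axis of 2 log2 units in every panel and a dotted line at the filter of 6.05 where it falls in view. Dhrs3 and Aldh1a1 were higher in VAD and BMS than in both controls and Rdh10 was lower, while Aldh1a2 was high on the BMS array and Aldh1a3 and Crabp1 on the VAS array.

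Cyp26b1, which breaks retinoic acid down, was nearly level across the arrays. Its level was 6.09 in VAS, 6.22 in VAD, 6.07 in CTR and 6.18 in BMS, a range of 0.16. Both treated arrays were above both controls, by a gap of 0.10. The differences were 0.14 for the diet and 0.12 for the antagonist, and -0.02 between the controls. The last of these turned positive when the arrays were quantile normalized again.

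Cyp26a1, the other hydroxylase and a widely used readout of retinoic acid action, was low on every array. Its level was 4.28 in VAS, 4.11 in VAD, 4.16 in CTR and 4.10 in BMS. Whether the probe set was above its own background is not known from these values, so this order of levels is only the order of the deposited numbers. The receptor gene Rarb, which retinoic acid is also known to induce, passed the filter and stood at 6.43 in VAS, 6.39 in VAD, 6.42 in CTR and 6.58 in BMS. Its differences of -0.03 and 0.16 were smaller than those of Dhrs3 and Aldh1a1.

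Retinoic acid receptors bind pairs of 6-base elements, of which AGGTCA is the best known. The form AGTTCA was also searched, and so were the forms GGGTCA and, as the last of the 4 allowed, GGTTCA. A pair had any of these forms in the same orientation with 5 bases between them, on either strand. RefSeq promoter windows (GRCm38.p6, 250 bases before each annotated start) were found for 6 of the 9 genes, in 9 windows. Cyp26a1 was the member with such a pair, 32 to 16 bases before the start, and 29 of 32851 windows (0.0883%) held one. The stretch at chr19:37697764-37697804 on the + strand is shown with that of Rarb at chr14:16575501-16575541 on the - strand, because these are the genes of the pathway list in which the pair lay in the window. Capitals mark the elements, which in Cyp26a1 read on the opposite strand.
Cyp26a1: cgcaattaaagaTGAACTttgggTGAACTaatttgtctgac
Rarb: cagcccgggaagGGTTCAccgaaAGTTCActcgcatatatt
No window of the members held the elements with 1 or 2 bases between them, which 0.164% and 0.174% of all windows did. At least 1 element, in a pair or alone, lay in a window of Aldh1a1 and of Cyp26a1, as in 38.6% of all windows. In Cyp26a1 these were the 2 elements of the pair, and in Aldh1a1 there was 1. Of 28 genes with the 5-base pair in a window, 13 were on the array and 3 past the filter, with differences from -0.28 to 0.05 for the diet and from 0.05 to 0.16 for the antagonist.

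Promoter windows of Dhrs3 and Aldh1a1 are shown because these members had the largest estimates in the fit of both experiments given below. The windows are the first of 3 listed for Dhrs3, at chr4:144892577-144892826, and the downstream one of 2 for Aldh1a1, at chr19:20601718-20601967, both on the + strand. They are the window richest in CG dinucleotides for Dhrs3 and the poorest for Aldh1a1. Capitals mark these dinucleotides, the sites of DNA methylation in mammals.
Dhrs3: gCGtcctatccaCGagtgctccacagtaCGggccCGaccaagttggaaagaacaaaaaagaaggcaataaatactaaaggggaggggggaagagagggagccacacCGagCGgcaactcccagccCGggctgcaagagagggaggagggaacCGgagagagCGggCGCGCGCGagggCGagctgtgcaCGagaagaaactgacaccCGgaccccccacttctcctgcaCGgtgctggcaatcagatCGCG
Aldh1a1: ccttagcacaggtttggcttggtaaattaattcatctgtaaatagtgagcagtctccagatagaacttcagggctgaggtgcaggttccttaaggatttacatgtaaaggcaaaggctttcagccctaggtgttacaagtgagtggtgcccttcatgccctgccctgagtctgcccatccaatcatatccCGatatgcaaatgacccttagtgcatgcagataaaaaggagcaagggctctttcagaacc
The Dhrs3 window held 19 CG dinucleotides, and 19.7% of all windows held as many or more. The other Dhrs3 windows held 8 and 7. The Aldh1a1 window held 1, and 18.8% held as few or fewer, while the other Aldh1a1 window held 3. The median over all windows was 6. These are descriptions of the letters and say nothing of which factor acts there.

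Crabp2, the binding protein that carries retinoic acid to its receptors in the nucleus, differed little between arrays. Its level was 6.97 in VAS, 7.22 in VAD, 7.12 in CTR and 7.08 in BMS. The groups overlapped, with BMS below CTR. The differences were 0.25 for the diet and -0.04 for the antagonist.

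Crabp1, the related binding protein of the cytoplasm, was high on the VAS array and below the filter on all 4. Its level was 5.36 in VAS, 4.63 in VAD, 4.77 in CTR and 5.04 in BMS. VAD minus VAS was -0.72, but CTR minus VAS was -0.59 and VAD minus CTR -0.14. As for Aldh1a3, VAS was the highest array and BMS the next, and the treated and control arrays overlapped.

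The first comparison asked how a vitamin A-deficient diet changed these genes. Of the 7 genes past the filter, Dhrs3 and Aldh1a1 were at least 1.5-fold higher in VAD, as were 1.45% of all genes past the filter. None of the 7 was 1.5-fold lower, beside 2.11% of all genes, although Rdh10 and Aldh1a3 came near with -0.53 and -0.54. Dhrs3 alone of the 7 was 2-fold higher, as were 0.234% of all genes. The median of the 7 was 0.22, the value of Aldh1a2, and that of all genes 0.01. These are differences between 2 arrays and carry no test, and the members were chosen with earlier results of these data known.

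The second comparison asked what blocking the receptors did. Aldh1a1 and Aldh1a2 were at least 1.5-fold higher in BMS, beside 3.11% of all genes, and Dhrs3 was just short of that mark. None of the 7 was 1.5-fold lower, beside 1.89% of all genes. The median of the 7 was 0.28, the value of Aldh1a3, against 0.01 for all genes. This median counts Aldh1a2 with 0.88, which passed the filter through the BMS array alone. Aldh1a1, Dhrs3, Cyp26b1, Crabp2 and Rdh10, which reached the filter on all 4 arrays, had 0.83, 0.56, 0.12, -0.04 and -0.23.

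The control arrays also differed from each other. Aldh1a1 and Aldh1a3 were at least 1.5-fold lower in CTR than in VAS, beside 5.87% of all genes. None of the 7 was 1.5-fold higher, beside 2.66%. The median of the 7 was -0.02. These comparisons share arrays, and the low CTR level of Aldh1a1 enters both its antagonist difference and its control difference. Aldh1a2 and Aldh1a3, counted above, passed the filter only through the array on which each was high.

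**Figure D2:**
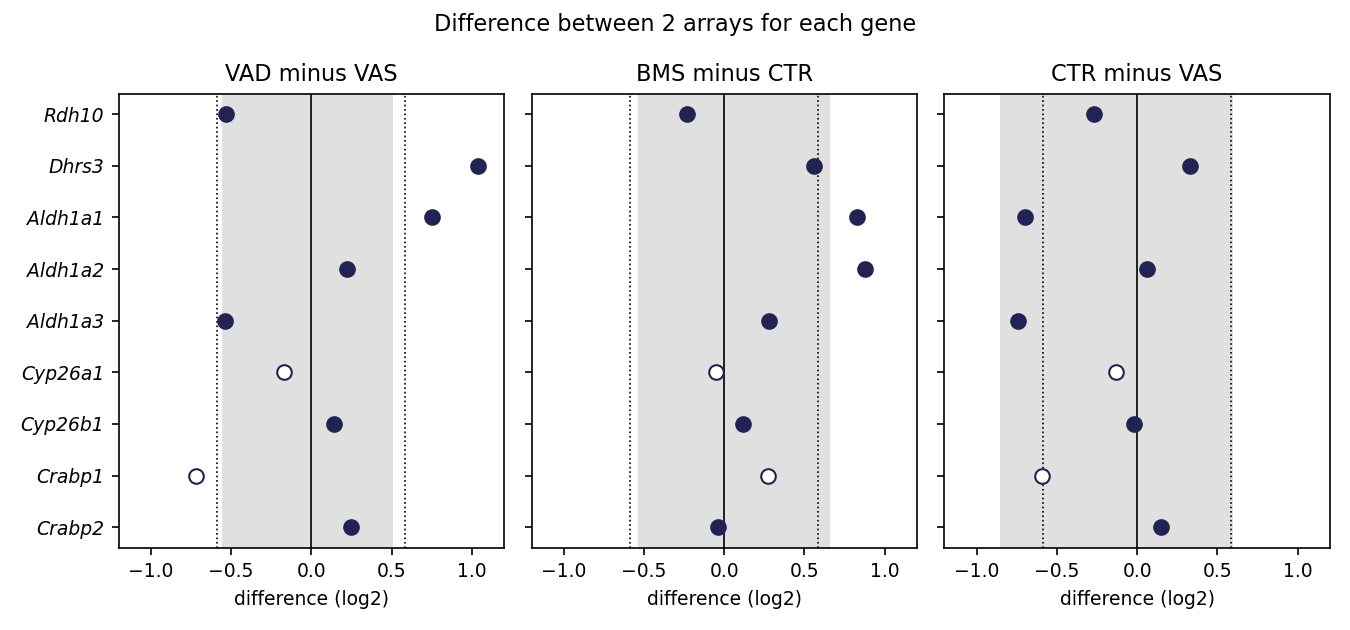
Difference between arrays on the log2 scale for the 9 genes in each of the 3 comparisons. Filled points passed the filter and open points did not, the grey band holds the middle 95% of all 12395 genes past the filter, and dotted lines mark 1.5-fold. Dhrs3 and Aldh1a1 lie to the right of the band for the diet and Aldh1a1 and Aldh1a2 for the antagonist, while no filled point lies outside it between the controls.

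Setting both experiments together, VAD and BMS were both above VAS and CTR for Dhrs3, Aldh1a1, Aldh1a2 and Cyp26b1, that is for 4 of the 7, beside 14.6% of all genes. Both were below for Rdh10, 1 of the 7, beside 11.6%. Aldh1a3 and Crabp2 did neither. Aldh1a2 passed the filter through the BMS array alone, so the filter favoured its place among the 4. The diet and antagonist differences use different control arrays, and their own values for each gene stand above.

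The one contrast with more than 1 array on each side, VAD and BMS against VAS and CTR with the experiment as a block, was fitted with limma. By this fit Dhrs3 had a difference of 0.80 (SE 0.17) and Aldh1a1 of 0.79 (SE 0.13), at rank 41 and 10 of 12395 genes when ordered by unadjusted p. Aldh1a2 had 0.55 (SE 0.20) and Rdh10 -0.38 (SE 0.15), at rank 379 and 475. The filter favoured a difference for Aldh1a2, which passed through the BMS array alone. Cyp26b1, Crabp2 and Aldh1a3 had estimates of 0.13 (SE 0.13), 0.10 (SE 0.15) and -0.13 (SE 0.23). After Benjamini-Hochberg adjustment in limma each of the 7 had an adjusted p of 1.0, and 0 of 12395 genes (0.0%) passed, while 476 (3.84%) had an unadjusted p under 0.05. The fit treats the diet and the antagonist as 1 condition. Its SE rests on how far the diet and antagonist differences disagree, moderated over all genes, and holds no spread between mice. The fit has 1 residual degree of freedom, and the lack of a call does not show that these genes were unaffected.

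Other genes of the pathway were taken from a list of 49, of which 48 were on the array and 22 past the filter. In VAD, 1 of the 22 (4.55%) was 1.5-fold higher, beside 1.45% of all genes, namely Lipe, the hormone-sensitive lipase that also frees retinol from its esters. Lipe stood at 6.51 in VAS, 7.26 in VAD, 7.06 in CTR and 7.10 in BMS, so VAS was the low array. None of the 22 was 1.5-fold lower, beside 2.11% of all genes, and their median was -0.10.

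In BMS, 2 of the 22 (9.09%) were 1.5-fold higher, beside 3.11% of all genes, and none lower, beside 1.89%, with a median of 0.10. Against VAS in place of CTR, 1 was higher (Rarg, 0.62) and 4 lower (Rbp4 -0.74, Rbp7 -0.72, Adh7 -1.48 and Cyp1b1 -1.16). These were not the 2 genes counted against CTR. Rbp7 passed the filter through the VAS array alone, and Adh7 and Cyp1b1 through VAS and VAD alone. For these genes the filter itself favoured a lower value in BMS than in VAS. The share of all genes was not counted against VAS. Adh1, an alcohol dehydrogenase that can oxidise retinol, stood at 11.06 in VAS, 10.73 in VAD, 9.70 in CTR and 10.87 in BMS. It was 1.17 higher in BMS than in CTR and so the 1 member of the 22 past 2-fold, as were 1.07% of all genes. Lpl, the lipoprotein lipase that also acts on retinyl esters carried in the blood, stood at 7.88 in VAS, 7.57 in VAD, 7.25 in CTR and 7.88 in BMS. For both, CTR was the low array, and BMS was close to VAS.

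Between the controls 7 of the 22 (31.8%) were 1.5-fold lower in CTR, beside 5.87% of all genes, and none higher, beside 2.66%. Of these, 3 were past 2-fold, beside 1.71% of all genes. These 3 were Adh1 with -1.36, Cyp1b1 with -1.28 and Adh7 with -1.25. The others were the retinol-binding protein genes Rbp7 with -0.98 and Rbp4 with -0.92, Adh5 with -0.64 and Lpl with -0.63. They were named here after their values were seen, apart from Adh1 and Lpl. Rbp7 reached the filter on the VAS array alone, and Cyp1b1 and Adh7 on VAS and VAD alone. For these genes the filter itself favoured a lower value in CTR. The median of the 22 was -0.03, so most of the list did not share this difference. The 5 receptor genes past the filter, Rara, Rarb, Rarg, Rxra and Rxrb, differed by -0.15 to 0.31 for the diet and by -0.11 to 0.16 for the antagonist.

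**Figure D3:**
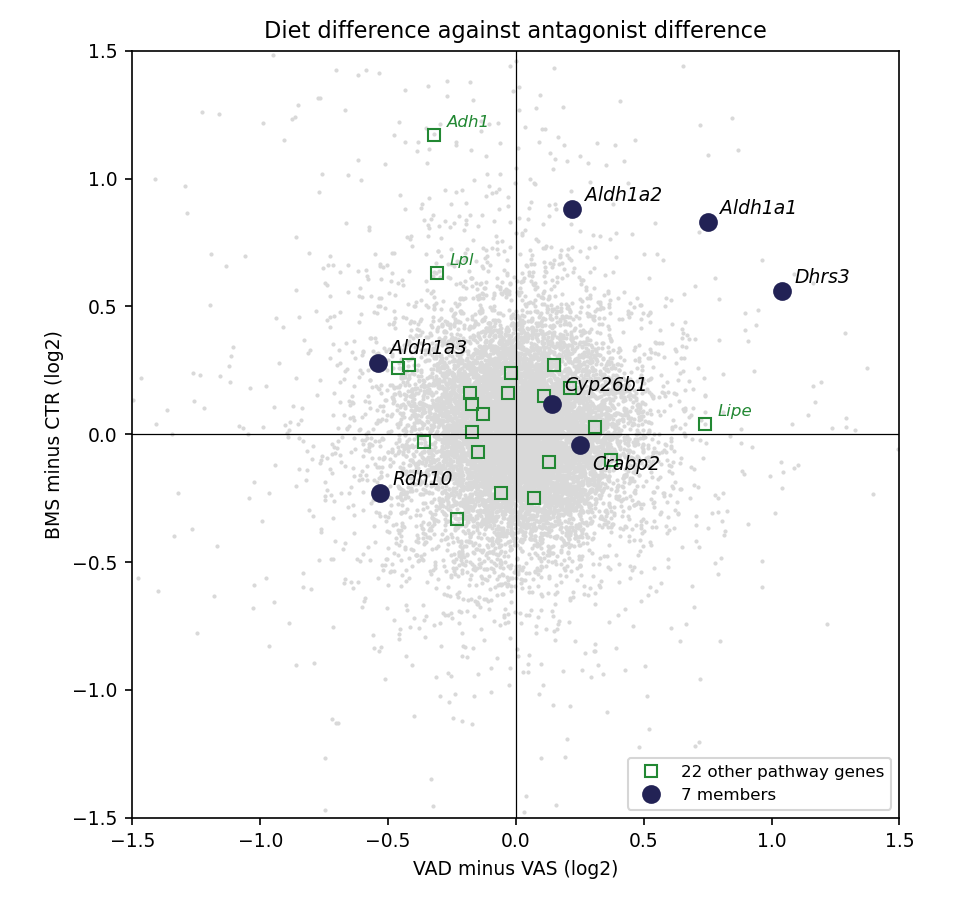
VAD minus VAS (horizontal) against BMS minus CTR (vertical), both in log2 units, for the 7 members past the filter (filled circles), 22 other pathway genes (open squares) and all genes past the filter (grey dots). Dhrs3 and Aldh1a1 lie high on both axes, and Adh1 and Lpl are high for the antagonist alone. The axes end at 1.5, which leaves 68 of 12395 genes outside.

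Markers of other cells differed between the same arrays. In BMS minus CTR all 12 fibroblast markers were above 0, beside 51.4% of all genes, with a median of 0.46, and Pdgfra was 1.07 and Dpt 0.24 higher. In CTR minus VAS their median was -0.38 and 5 of the 12 were at least 1.5-fold lower in CTR, beside 5.87% of all genes. Aldh1a1 and Adh1 shared both directions with them, and the part of fibroblast RNA in those differences was not tested. In VAD minus VAS the fibroblast median was -0.10 with 4 of 12 above 0, beside 6376 of 12395 genes. Pdgfra was 0.42 higher and Dpt differed by -0.09, and Aldh1a1 was 0.75 and Dhrs3 1.04 higher. VAD and BMS were both above both controls for 4 of the 12, Pdgfra among them, beside 14.6% of all genes. The part of fibroblast RNA was not tested for the diet either. The mean level of the 12 was 9.80 in VAS, 9.75 in VAD, 9.20 in CTR and 9.92 in BMS.

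Aldh1a2 is known in mesothelium, and of the 6 mesothelial markers 3 passed the filter, with a median of 0.10 in BMS minus CTR and a highest difference of 0.20, where Aldh1a2 differed by 0.88. Msln, the defining gene of that list, stayed below the filter at 5.05, 5.19, 4.66 and 4.91 in VAS, VAD, CTR and BMS, and Upk3b differed by -0.05 between BMS and CTR. The part of mesothelial RNA in the Aldh1a2 difference was not tested.

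The other lists gave these medians in VAD minus VAS, BMS minus CTR and CTR minus VAS. The 8 smooth muscle markers had 0.19, -0.13 and 0.00, and the 6 markers of pericytes and vascular muscle 0.30, -0.28 and 0.45. The 5 endothelial markers past the filter had 0.01, 0.35 and -0.06. They varied widely, as Cldn5 had 0.95, 0.49 and 0.64 and Tek -0.59, 1.42 and -0.73. Cldn5 and Tek were named after their values were seen. The part of endothelial RNA in the differences of the members was not tested. The 6 alveolar epithelial markers past the filter had -0.84, -0.02 and -1.04, and the 3 of airway epithelium 0.25, -0.16 and 0.30. The 4 macrophage markers had 0.04, -0.03 and -0.44, and the 2 lymphocyte markers 0.31, -0.09 and -0.57. VAS was the array with the most alveolar epithelial signal, as it was for Aldh1a3 and Crabp1, and the part of that signal in their differences was not tested.

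**Figure D4:**
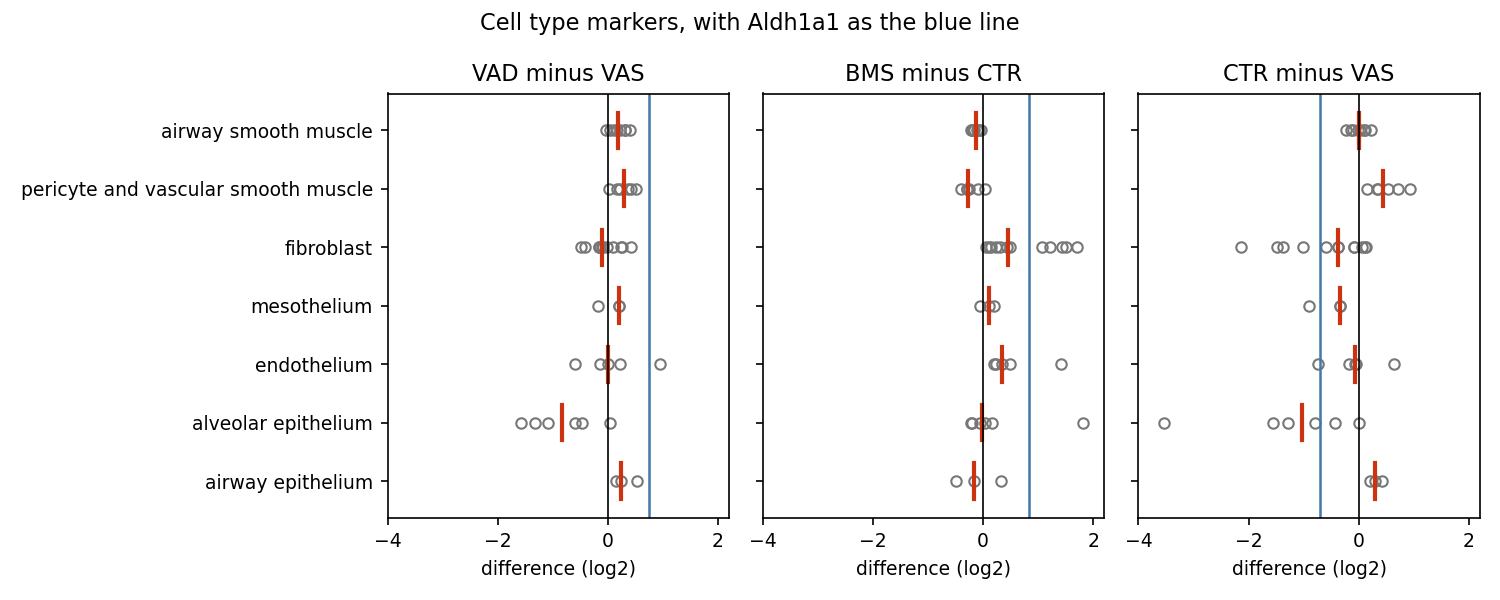
Difference in log2 units for the marker genes past the filter of 7 cell types (open circles) in the 3 comparisons, with the median of each list as a red bar and the difference of Aldh1a1 as a blue line. All 12 fibroblast markers lie above 0 for BMS minus CTR. For VAD minus VAS they run from -0.48 to 0.42 with a median of -0.10, and Aldh1a1 lies at 0.75.

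For the members whose highest and lowest arrays were at least 2-fold apart, Dhrs3 and Aldh1a1, the most similar genes were sought by the Euclidean distance between profiles over the 4 arrays, each gene taken around its own mean. Nearest to Dhrs3 were Amph at a distance of 0.12, Itgb3 at 0.17 and Serpinb6b at 0.18. Amph, for example, stood at 5.13 in VAS, 6.07 in VAD, 5.47 in CTR and 5.89 in BMS. Nearest to Aldh1a1 were Sv2c at 0.18, Casq2 at 0.22 and Iqgap2 at 0.23. Sv2c stood at 6.65 in VAS, 7.40 in VAD, 5.84 in CTR and 6.93 in BMS, with CTR lowest and VAD highest, as for Aldh1a1. With 4 arrays such a likeness is a description of these pools.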

How the data were processed

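Expression of sorted airway smooth muscle cells was measured on 4 arrays, 1 per group. The authors deposited log2 values from RMA (background correction, normalization across arrays and probe summary). The submitters' processing notes name affy 1.36.1 and R 2.15.1. Such normalization hides a shift shared by most genes. Without scanner intensities it is not known which probe sets were detected, and precision is limited by the number of arrays. Probe sets were named through GEO's platform annotation and Entrez numbers (25206 in all, 23185 with 1 symbol, 0 with several, 2021 unnamed). Genes were kept where the highest array reached the median of named values. Differences between 2 arrays carry no test, and 1.5-fold and 2-fold marks were used for counts. Limma 3.58.1 in R 4.3.3 was fitted over all genes kept, with Benjamini-Hochberg adjustment. Tested on simulated data, the fit called more unchanged genes than its adjusted threshold allows, so its standard errors and ranks by p are approximate. Python 3.11.15 was used for the rest. The text names all 9 members, pathway genes at least 1.5-fold apart in either experiment, and the 3 nearest profiles of members with a range of 2-fold, without provisional names. Where marker values are given, they are of the first gene or the first 2 of a list, and of Cldn5 and Tek. The receptor genes, Aldh1a7 and pathway genes 1.5-fold apart between the controls were named besides. The members and lists were chosen with earlier results of these data known. Promoter sequences are from RefSeq, GRCm38.p6. Alternatives were other filters, normalizations, controls, fold marks and limma settings.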

Additional observations from a re-analysis of the deposited data

Results flagged for a closer look

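Aldh1a3 went down with the diet and up with the antagonist, each against its own control, and its antagonist difference exceeded its diet difference by 0.83 on the log2 scale. Crabp2 went the other way, with a difference between the experiments of -0.29. With 1 array per group neither difference was tested. For Aldh1a3 the sign in each experiment turned when the control of the other experiment was used, to 0.20 for VAD and -0.46 for BMS.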

How the results depend on the processing

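Of 27 member differences (9 genes in 3 comparisons), 1 changed sign with quantile normalization again (Cyp26b1, CTR minus VAS) and 0 with cyclic loess. Dhrs3 kept its direction against the other control (0.71 in VAD, 0.90 in BMS), as did Aldh1a1 (1.45 and 0.13). No filter left the member counts within 1.5 times, with 3 in VAD minus VAS and CTR minus VAS, Crabp1 being added. With the filter at the 75th percentile (7.67), which kept 3 members, 1 member was apart in BMS minus CTR and 1 in CTR minus VAS, and pathway counts were 0 in VAD and 4 in CTR minus VAS. At 2-fold the member counts were 1, 0 and 0 in VAD minus VAS, BMS minus CTR and CTR minus VAS, and the pathway counts 0, 1 and 3. Of all 12395 genes, 81, 168 and 252 were 2-fold apart in either direction. Against the other control the pathway counts were 4 for VAD (all higher) and 5 for BMS (1 higher, 4 lower). With both controls averaged it was 1 for BMS (lower), where the main count of 2 was higher. For the other filters and controls the share of all genes was not counted. The limma fit called 0 members under every setting run, with a lowest adjusted p among members from 0.892 to 1.0, including leaving out each array without the block, where a lone array is assumed to vary like the others. Without the block, 1 member (Dhrs3) had an unadjusted limma p under 0.05, as did 231 of 12395 genes. With the block 4 members did, as did 476 genes. Of these 4, Aldh1a2 passed the filter through the BMS array alone. The labels give no replicate numbers, so arrays were paired by the experiment block alone.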

Other observations

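Rdh10 and Dhrs3 catalyse opposite steps between retinol and retinaldehyde, and their levels changed unequally between arrays. The change of Rdh10 minus that of Dhrs3 was -1.57 on the log2 scale for VAD minus VAS, -0.79 for BMS minus CTR and -0.61 for CTR minus VAS. This pair was chosen after its values were seen, the difference was not tested, and mRNA levels do not give enzyme activity. Aldh1a7, a close relative of Aldh1a1, lay below the filter at 4.37 in VAS, 4.52 in VAD, 4.51 in CTR and 4.51 in BMS. It did not show the differences of Aldh1a1. Whether its probe set was detected is not known, so this does not show that they were particular to Aldh1a1.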
